A study of Homo sapiens with 2 samples.

Results

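IFI27, IFI27L1, IFI27L2, IFI6 and XAF1 are 5 human genes, of which IFI27 and IFI6 encode small interferon-induced membrane proteins, IFI27L1 and IFI27L2 relatives of IFI27, and XAF1 a protein that acts on inhibitors of apoptosis. The set was chosen by the ratios of IFI27, IFI6 and XAF1 on these same arrays, which were among the high ones, so the ratios of its members are a description and were not tested. All non-control probes whose RefSeq accession belongs to one of these genes were taken, which gave 6 probes among 42405 on the array, for 5 of the 19741 genes with a RefSeq probe. The probe of IFI27 carries the retired accession NM_005532.

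RWPE-1, a noncancerous epithelial line from human prostate kept in serum-free keratinocyte medium (KSF), had received pre-miR-424 at 30 nM, or the precursor Negative control #1 at the same dose. Amplified RNA of both groups was hybridised together to 2 Agilent two-colour arrays, and RNA of the pre-miR-424 cells carried Cy5 on the first array (normal labelling) and Cy3 on the second (dye swap). The labels call the arrays technical replicates, so they counted as 1 replicate of a single cell line, no p-value was computed, and the SD between arrays holds the error of labelling and hybridisation alone.

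IFI27, also known as ISG12a, and IFI6 belong to a family of short, very hydrophobic proteins that sit in membranes. Type I interferon, a signal that cells release on viral infection, acts through a transcription factor complex that binds a DNA element, the interferon-stimulated response element, in the promoters of such genes. IFI27 is mainly mitochondrial and has been linked to sensitising cells to apoptosis, IFI6 has been linked to protection from it, and XAF1 binds the caspase inhibitor XIAP and counteracts it. IFI27L1 and IFI27L2 lie in the same gene cluster as IFI27. The arrays measured RNA, and neither death nor survival of the cells.

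The transfected precursor delivers miR-424, whose mature sequences are shown because they are the agent of the comparison. They were taken from RefSeq (GRCh38.p14, minus strand), with the 5p strand at chrX:134546680-134546701 and the 3p strand at chrX:134546644-134546664, and capitals mark the seed, bases 2 to 8.
hsa-miR-424-5p: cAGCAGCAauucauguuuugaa
hsa-miR-424-3p: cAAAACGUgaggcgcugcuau
The 5p seed is shared by 7 human mature microRNAs in that table, miR-15a, miR-15b, miR-16, miR-195, miR-424, miR-497 and miR-6838, all as 5p strands. Sites for this seed in the transcripts of the 5 genes were not analysed here.

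Each array held 62976 spots, and no spot was saturated. Between 66.8% and 70.1% of the spots lay well above background in a channel, and 25664 probes for 13813 named genes were measured in both channels of both arrays. The ratios of these probes spread by an SD of 0.24 on the normal and 0.27 on the swapped array on the log2 scale and correlated weakly between the arrays (Pearson r = 0.157 across probes, which are not independent). The SD of a single array's ratio, pooled over probes, was 0.24. Markers fixed for the cell line's identity were checked: all 7 basal epithelial markers, among them KRT5, KRT14 and TP63, were measured, as were 3 of 5 luminal markers (KRT8 and KRT18 among them), 3 of 4 stromal markers, 2 of 4 leukocyte markers and 1 of 2 endothelial ones, while CD3E and PECAM1 were not measured on both arrays (no probe of PECAM1 was well above background in any channel). KRT5 differed between arrays, with log2 ratios of 0.09 and −1.09, as did the luminal KRT18 (0.73 and −0.55). Among the basal markers, KRT15 was lower on both (−0.22 and −0.54) and ITGA6 higher on both (0.25 and 0.40). The stromal marker VIM, which cultured epithelial cells can also express, was lower on both (−0.27 and −0.31). The leukocyte markers measured were CD14 (0.28 and 0.01) and PTPRC, by 1 of its 4 probes (−0.05 and −0.08), and the endothelial one was CDH5 (0.08 and 0.05).

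All 6 member probes passed the filter on dim probes, and none passed it through 1 group only. IFI27, IFI6 and both probes of XAF1 were up-regulated in the pre-miR-424 channel of both arrays, by a mean of 2.34-fold to 3.01-fold, whereas IFI27L1 and IFI27L2 lay at ratios near 0. Of the 6 probes, 3 were at least 2-fold higher on both arrays (0.0546% of all measured probes were) and 4 at least 1.5-fold higher (0.421% of all). Since these ratios chose the genes, the shares are given for scale and nothing is read from them. In RNA of whole cultures, a change in the number of cells with a transcript and a change in its RNA per cell cannot be told apart.

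IFI27 had normalized levels, in log2 of the intensity, of 12.95 with pre-miR-424 and 11.64 in the control on the normal array. On the swapped array the levels were 13.37 and 11.50. Both pre-miR-424 channels were above both control channels, which is a description only, since these ratios chose the gene. The log2 ratio was 1.31 on the normal and 1.87 on the swapped array, a mean of 1.59 ± 0.40 (SD between 2 arrays) or 3.01-fold, and it ranked 3 of 25664 measured probes by the mean. The probe was printed as 2 spots, whose log2 ratios of 1.27 and 1.35 on the normal array and 1.83 and 1.91 on the swapped array differed less than the arrays did.

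IFI6, also called G1P3, is held in the endoplasmic reticulum by the chaperone BiP. Its levels were 13.36 with pre-miR-424 and 12 in the control on the normal array, and 13.24 and 12.15 on the swapped array. Here too the pre-miR-424 levels were above the control levels, and nothing is read from that order in a gene chosen by its ratio. The log2 ratio of 1.36 on the normal and 1.09 on the swapped array gave a mean of 1.23 ± 0.19 (SD, 2 arrays), or 2.34-fold, which ranked 11 of 25664. Before normalization the median signals of its 2 spots on the swapped array were close to each other between the groups, at 6038.5 and 7591.5 with pre-miR-424 (Cy3) against 5806.5 and 7107.5 in the control (Cy5). On the normal array the same spots read 12481.5 and 13938 with pre-miR-424 (Cy5) against 3102.5 and 3494 in the control (Cy3). Cy5 was the brighter dye on both arrays, with median spot signals of 290 and 314 against 189 and 165 in Cy3, so the size of the ratio on each array rests on the dye normalization. Under median centring without loess, the ratios of IFI6 were 1.56 and 0.78, and its 2-fold call was lost.

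XAF1, a zinc-finger protein that antagonises XIAP and is itself interferon-induced, was measured by 2 different probes. A_24_P557479 had levels of 9.75 with pre-miR-424 and 8.78 in the control on the normal array, and of 10.13 and 8.63 on the swapped array. A_33_P3258346 had levels of 9.94 and 8.87 on the normal array, and of 10.13 and 8.73 on the swapped array. With both probes, every pre-miR-424 channel was above every control channel, again in a gene chosen by its ratio. The log2 ratios were 0.97 and 1.5 for A_24_P557479 (mean 1.23 ± 0.37, SD, 2 arrays) and 1.07 and 1.39 for A_33_P3258346 (mean 1.23 ± 0.23), and both means correspond to 2.35-fold. A_24_P557479 fell just short of 2-fold on the normal array, and is the member probe that was called at 1.5-fold only. Across the 2838 genes with 2 measured probes, the means of the probes differed by a median of 0.085, so the means of the XAF1 probes were closer than those of most such pairs. On single arrays the probes lay farther apart and in opposite order, at 0.97 and 1.07 on the normal and 1.5 and 1.39 on the swapped array. The 2 spots of A_24_P557479 differed by 0.08 on the normal and 0.28 on the swapped array. Over all probes with 2 spots, the median difference was 0.068 on each array.

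IFI27L1 had levels of 11.80 with pre-miR-424 and 11.61 in the control on the normal array, and of 11.59 and 11.81 on the swapped array. The order of the groups thus turned between the arrays, with log2 ratios of 0.19 and −0.22 and a mean of −0.01 ± 0.29 (SD, 2 arrays). IFI27L2 had levels of 12.71 and 12.68 on the normal array, and of 12.66 in both groups on the swapped array. Its log2 ratios were 0.03 and −0.01, with a mean of 0.01 ± 0.02. The levels of both genes differed between groups by less than the spread of a single array's ratio, 0.24 on the log2 scale. The lowest ratio among the IFI27, IFI6 and XAF1 probes on any array, 0.97, was above the highest of IFI27L1 and IFI27L2, 0.19. IFI27, IFI6 and XAF1 were chosen by their high ratios on these arrays, so nothing is read from this gap.

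**Figure D1:**
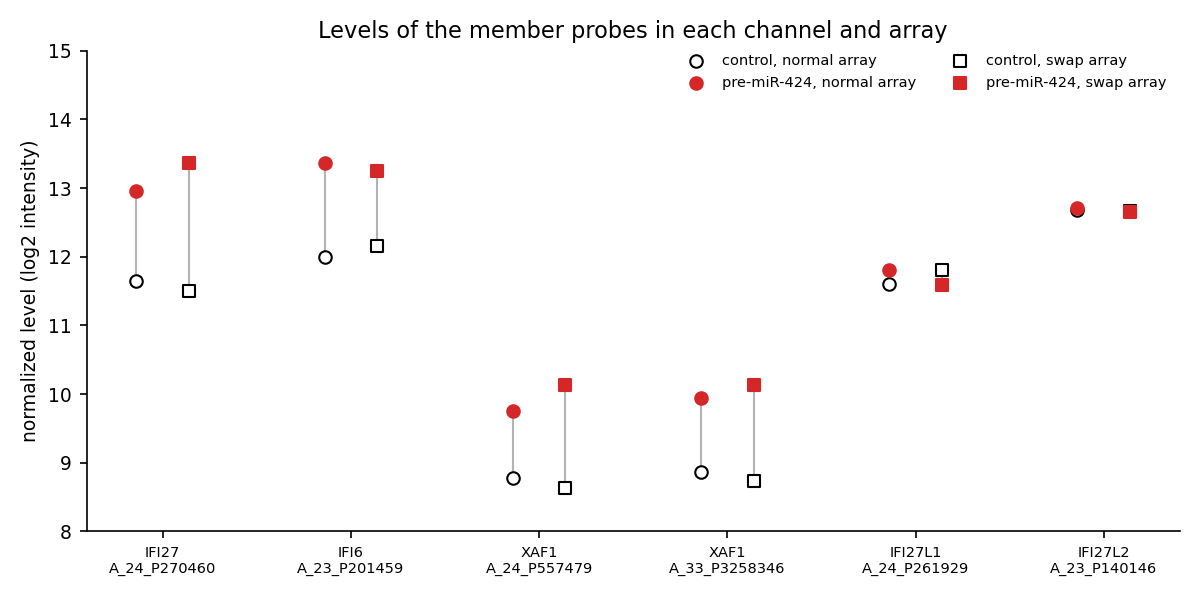
Normalized level (log2 intensity, vertical axis) of the 6 member probes (horizontal axis) with pre-miR-424 (red) and in the control (open) on the array with normal labelling (circles) and on the dye swap (squares); grey lines join the channels of an array. The red symbols of IFI27, IFI6 and both XAF1 probes lie above the open ones on both arrays, whereas those of IFI27L1 change order and those of IFI27L2 overlap; levels of different probes are not comparable.

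**Figure D2:**
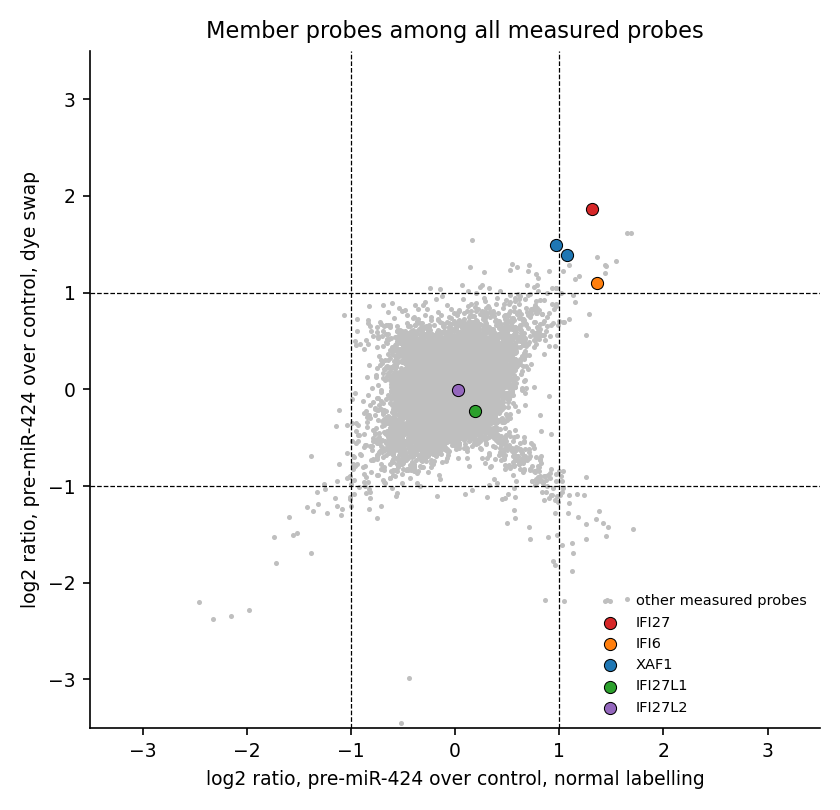
Log2 ratio of pre-miR-424 over control on the normal array (horizontal axis) against the dye swap (vertical axis) for the measured probes, with member probes coloured and dashed lines at 2-fold. IFI27, IFI6 and XAF1 A_33_P3258346 lie past 2-fold on both axes, XAF1 A_24_P557479 lies at 0.97 on the horizontal axis, and IFI27L1 and IFI27L2 lie near 0.

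The plot of both arrays' ratios shows the member probes among the rest. Probes in its upper left and lower right had opposite signs on the arrays, and 25 measured probes did so past 2-fold on both arrays. Each labelling had a single array, so a bias of the dyes and the error of an array cannot be told apart. The part of the ratio tied to the dye, which also holds array error, was −0.28 for IFI27 and 0.13 for IFI6. It was −0.26 and −0.16 for the XAF1 probes, 0.21 for IFI27L1 and 0.02 for IFI27L2. This part was smaller in size than the mean ratio in IFI27, IFI6 and XAF1, and larger in IFI27L1 and IFI27L2. That follows from the signs alone, which were the same on both arrays in the former and opposite in the latter. It is therefore no further check of the ratios.

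The probes of other genes whose ratios were most like those of each member were found by Euclidean distance over the 2 arrays. For IFI27 these were MX2 (log2 ratios 1.65 and 1.62, distance 0.421), IFI44L (1.69 and 1.62, distance 0.454) and CMPK2 (1.37 and 1.37, distance 0.504), of which MX2 is a large GTPase that restricts viruses. For IFI6 the nearest were a probe of OAS2, an oligoadenylate synthetase (1.44 and 1.20, distance 0.132), SWAP70 (1.19 and 1.17, distance 0.186) and NECTIN2, an adhesion protein (1.44 and 1.28, distance 0.203). Both XAF1 probes had the same neighbours, the Wnt receptor FZD5 (1.09 and 1.28), a probe of the membrane protein IFITM1 (1.04 and 1.22) and OAS1 (0.90 and 1.22), at distances of 0.110 to 0.287. IFI27L1 was nearest to PLAAT5, NOP10 and LMNA and IFI27L2 to SH3KBP1, CCNL2 and NR1I3, all within 0.0045, in the dense centre of the plot where any probe has close neighbours.

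Sequences of the promoters are shown because the response element is what links IFI27 and IFI6 to interferon, and because the IFI27 cluster holds a gene with a high ratio between genes without one. The windows are from RefSeq (GRCh38.p14), which held 7 windows for the 5 genes, each read 5′ to 3′ on the gene's strand from 170 bases before to 30 bases after the annotated start. Capitals mark matches to the core of the response element, GAAANNGAAA (or TTTCNNTTTC on the other strand), and, in XAF1, to the same blocks with 1 base between, GAAANGAAA (TTTCNTTTC), a spacing that was added after the windows had been seen. IFI27 lies at chr14:94110566-94110765 (plus strand), IFI6 at chr1:27672163-27672362 (minus), XAF1 at chr17:6755876-6756075 (plus), IFI27L1 at chr14:94081140-94081339 (plus) and IFI27L2 at chr14:94129575-94129774 (minus).
IFI27: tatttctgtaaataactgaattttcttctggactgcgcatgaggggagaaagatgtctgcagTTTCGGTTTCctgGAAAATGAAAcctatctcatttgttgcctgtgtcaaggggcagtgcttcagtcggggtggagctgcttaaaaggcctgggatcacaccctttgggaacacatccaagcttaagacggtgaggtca
IFI6: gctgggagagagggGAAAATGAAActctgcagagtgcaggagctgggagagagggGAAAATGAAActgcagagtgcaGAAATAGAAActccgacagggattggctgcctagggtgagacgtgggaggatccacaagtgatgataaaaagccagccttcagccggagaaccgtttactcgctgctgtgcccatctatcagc
XAF1: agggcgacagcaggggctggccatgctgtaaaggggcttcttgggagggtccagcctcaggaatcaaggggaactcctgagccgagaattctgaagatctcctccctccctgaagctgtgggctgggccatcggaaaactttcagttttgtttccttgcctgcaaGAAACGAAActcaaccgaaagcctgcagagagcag
IFI27L1: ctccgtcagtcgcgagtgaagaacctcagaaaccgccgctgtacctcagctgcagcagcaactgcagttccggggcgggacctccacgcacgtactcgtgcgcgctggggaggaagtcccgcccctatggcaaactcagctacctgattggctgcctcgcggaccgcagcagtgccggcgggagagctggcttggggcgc
IFI27L2: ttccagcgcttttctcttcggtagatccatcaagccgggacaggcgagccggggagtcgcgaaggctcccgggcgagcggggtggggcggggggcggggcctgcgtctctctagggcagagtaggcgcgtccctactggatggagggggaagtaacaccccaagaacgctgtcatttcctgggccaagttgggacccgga

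The whole windows, from 250 bases before to 50 after the start, were searched on both strands. IFI6 held 3 matches to the core, beginning 156, 115 and 93 bases before the start. IFI27 held 2, beginning 108 bases before the start on the minus strand and 95 bases before it on the plus strand, and a second annotated start of IFI27 held the same pair farther upstream. Between them, and overlapping both, lay 1 match to the gamma-activated site, TTCNNNGAA, an element of the response to interferon gamma. XAF1 held no match to the core with 2 bases between the blocks and 1 match with 1 base, beginning 5 bases before the start, and its second window held neither. IFI27L1 and IFI27L2 held none of the 3 motifs, which says only that these letters are not in these windows.

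Among all 35116 windows in the table, 3.57% held the core with 2 bases, 3.12% the form with 1 base and 7.66% the gamma-activated site. In the list of interferon response genes described next, 25 of the 40 genes with a window held the core (62.5%), against 4.38% of all 27305 genes. The form with 1 base was in 40% of these 40 genes (3.87% of all) and the gamma-activated site in 32.5% (9.38% of all). The median log2 ratio was 0.63 over the 24 measured list genes with the core and 0.41 over the 14 without it. For the form with 1 base the medians were 0.57 over 15 genes with it and 0.43 over 23 without it. For the gamma-activated site they were 0.54 over 12 and 0.49 over 26. The list was made when earlier results of the same arrays were known, so these medians are a description. A match is a run of letters, and binding was not measured.

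**Figure D3:**
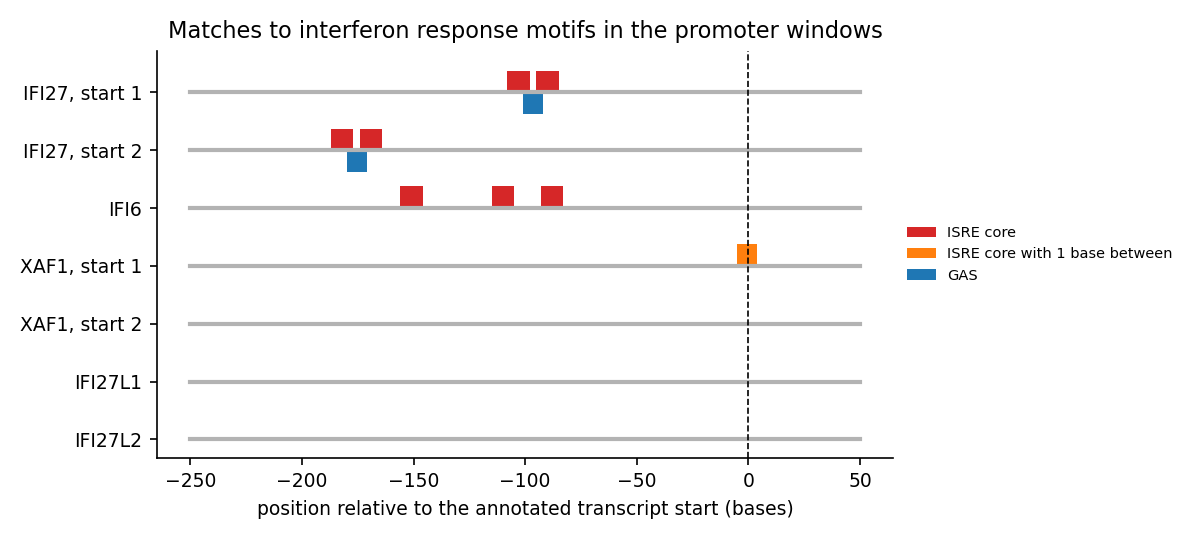
Matches to the core of the interferon-stimulated response element (red, 2 bases between the blocks; orange, 1 base) and to the gamma-activated site (blue) in the 7 RefSeq promoter windows of the 5 genes; the horizontal axis is the distance from the annotated transcript start in bases, with the start at the dashed line. Matches with 2 bases lie in the windows of IFI27 and IFI6, and none of the 3 motifs lies in those of IFI27L1 and IFI27L2.

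Most of the other listed genes known to be induced by type I interferon were higher along with IFI27, IFI6 and XAF1. These genes were listed when earlier results of the same arrays were already known. Their comparison with all genes is therefore a description and not an independent test. Of 50 genes on a list from general knowledge, from which the members had been left out, 48 were measured, with each gene represented by its brightest measured probe, and 44 were higher on both arrays (26.8% of all measured genes were). None was lower on both arrays (26.7% of all were), and 4 of the 48 had opposite signs on the arrays, namely IFITM3, PARP12, LGALS3BP and PSMB9. The median log2 ratio was 0.57 (0.55 on the normal and 0.58 on the swapped array), with a range from −0.03 to 1.65, against a median of 0.00 over all 13813 genes. At 2-fold on both arrays, 4 of the 48 genes were called higher, against 0.0796% of all genes. The brightest probes of OAS2 (0.97 and 0.86) and IFITM1 (1.13 and 0.98) were not called. Another probe of each was past 2-fold on both arrays, so these counts depend on the probe taken.

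The 3 largest rises of the list were IFI44L (log2 ratios 1.69 and 1.62), the GTPase MX2 (1.65 and 1.62) and the mitochondrial nucleotide kinase CMPK2 (1.37 and 1.37). The mean ratio of IFI27 was above those of 46 of the 48 list genes and below those of 2, IFI44L and MX2. IFI6 and XAF1 were above 44 of the 48, whereas IFI27L1 and IFI27L2 were above 1 each. XAF1 stood in this order by A_33_P3258346, its brighter probe. The differences of IFI6 and XAF1 from the next genes in the order, OAS1 and MX1, were within the spread of a single array.

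**Figure D4:**
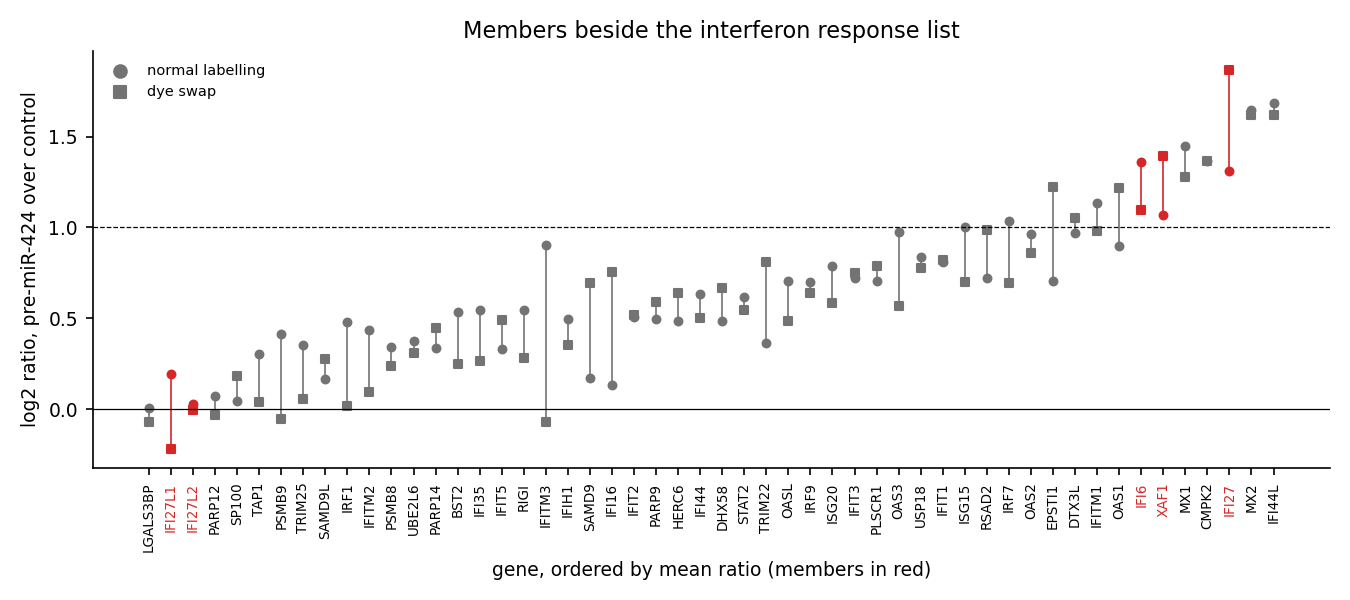
Log2 ratio of pre-miR-424 over control (vertical axis) on the normal array (circles) and the dye swap (squares) for 47 of the 48 measured interferon response genes and the 5 members (red), ordered by the mean ratio (horizontal axis); the dashed line is 2-fold. IFI27, IFI6 and XAF1 stand near the high end of the list and IFI27L1 and IFI27L2 at its low end.

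The ratios of genes of the apoptosis machinery around XAF1 were centred near 0. The list of these genes, too, was made when earlier results of the same arrays were known. It held 24 genes, namely inhibitors of apoptosis, caspases, death receptors and other genes of that machinery. Of these, 22 were measured (BIRC7 was not well above background and the probe of NAIP had an outlier spot). Their median log2 ratio was 0.02, with a range from −0.31 to 0.40. On both arrays 9 of the 22 were higher and 3 were lower, beside 26.8% and 26.7% of all measured genes, and 10 had opposite signs. None reached 2-fold on both in either direction. Of all 13813 genes only 11 were called higher and 4 lower, so nothing is read from that count. The largest mean rises were those of the death ligand TRAIL, TNFSF10 (log2 ratios 0.23 and 0.57), its receptor TNFRSF10B (0.39 and 0.35) and the pore-forming BAX (0.43 and 0.07). The largest falls were those of the initiator caspase CASP8 (−0.52 and −0.11), of DIABLO, which blocks inhibitors of apoptosis (−0.20 and −0.16), and of APAF1, the scaffold of the apoptosome (−0.25 and −0.06).

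Genes for known partners of the members were looked at next, and 4 of the 6 measured ones described here differed in sign between the arrays. Among all measured genes, 26.8% were higher and 26.7% lower on both arrays, so differing signs were common and nothing is read from them. XIAP, the target of XAF1, had log2 ratios of 0.27 and 0.03, and survivin, BIRC5, had 0.01 and −0.06. HSPA5, which encodes BiP, the partner of IFI6, was lower on both arrays (−0.24 and −0.40). For the nuclear export of NR4A1 with IFI27, the export receptor XPO1 had −0.26 and 0.21, and NR4A1 itself was not well above background in any channel. SKP2, which directs IFI27 to degradation, had 0.21 and −0.10. The ubiquitin ligase RNF114, a partner of XAF1, had −0.05 and 0.21. None of these measured partners reached 2-fold on either array. Only 86 of all 25664 measured probes did so on the normal array and 133 on the swapped array, so nothing is read from that either.

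The 3 nearest protein-coding genes on each side of the 3 loci made 18 neighbours, of which 12 were measured. None of the 12 was called at 2-fold in either direction. Of all 13813 genes only 11 were called higher and 4 lower, so nothing is read from that count. On chromosome 14, where IFI27 lies between IFI27L1 and IFI27L2, the log2 ratios were −0.11 and 0.01 for OTUB2, 0.07 and 0.09 for DDX24, 0.15 and 0.40 for PPP4R4, and −0.04 and −0.05 for SERPINA6. Around IFI6 on chromosome 1, PPP1R8 was slightly higher on both arrays (0.15 and 0.23) and WASF2 slightly lower (−0.01 and −0.10), while AHDC1 (0.11 and −0.16), FAM76A (−0.18 and 0.10) and STX12 (−0.07 and 0.05) changed sign between the arrays. Around XAF1 on chromosome 17, MED31 (0.17 and 0.25) and C17orf100 (0.02 and 0.26) were higher on both arrays, and ALOX12 had 0.01 and −0.16. FBXO39, next to XAF1, was well above background with pre-miR-424 on both arrays and in no control channel. Its levels of 6.84 and 6.93 against 6.47 and 6.38 gave log2 ratios of 0.37 and 0.55, a mean of 1.37-fold. The control levels were not well above background, so this size is uncertain and is not a lower bound.

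**Figure D5:**
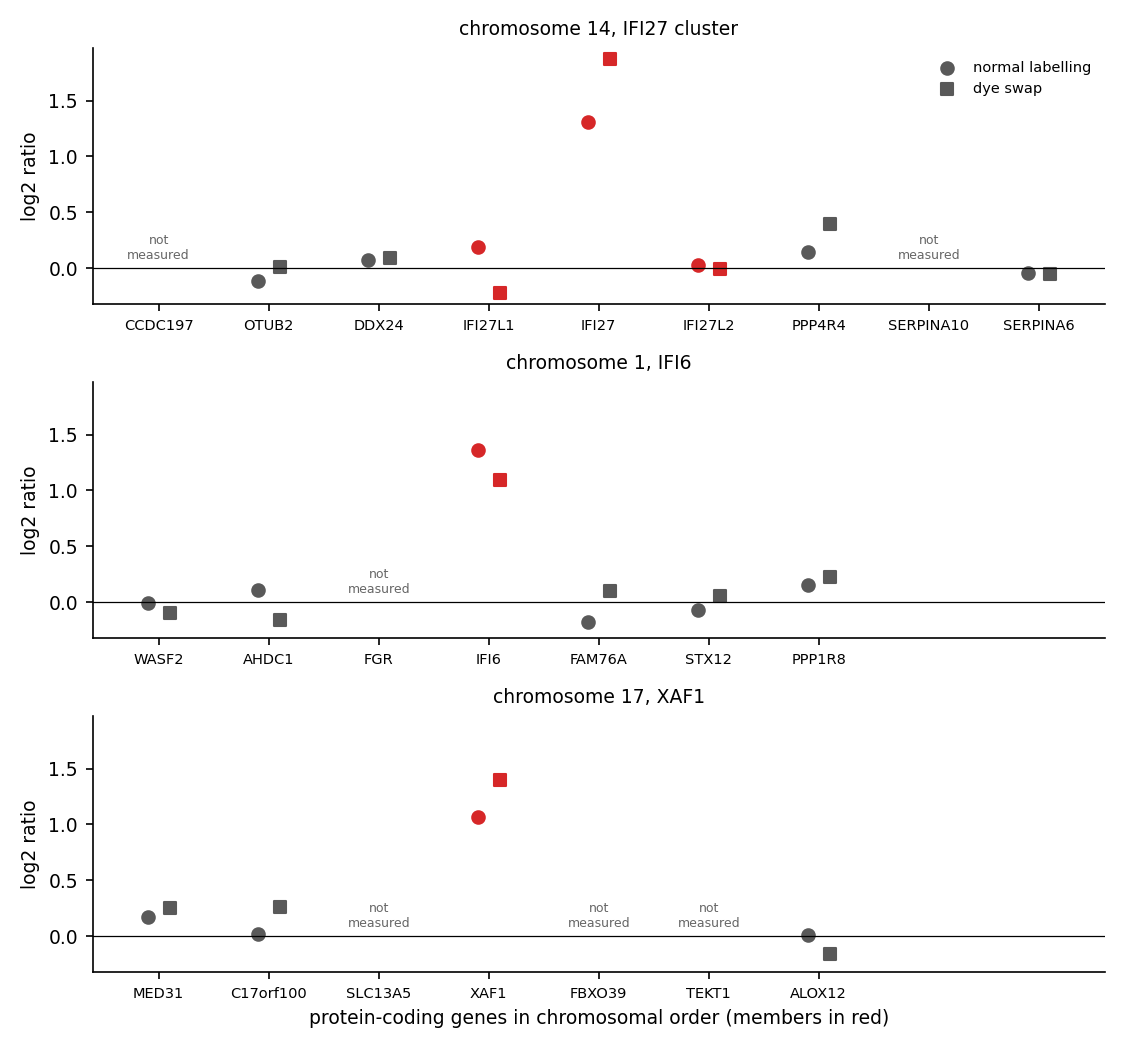
Log2 ratio of pre-miR-424 over control (vertical axes) on the normal array (circles) and the dye swap (squares) for the members (red) and the 3 nearest protein-coding genes on each side (grey), in chromosomal order (horizontal axes, not to scale). IFI27, IFI6 and XAF1 lie above 1 on both arrays, and the measured genes beside them lie between −0.22 and 0.40. XAF1 is drawn by A_33_P3258346 alone, and its other probe had 0.97 on the normal array.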

How the data were processed

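RNA of RWPE-1 cells with pre-miR-424 or control precursor was measured on 2 dye-swapped arrays, grouped by the labels, with amino allyl amplification per the labels. The files deposited by the authors hold, per spot and channel, the median signal and local background as linear intensity, not normalized, a log10 ratio of the dyes from the scanner software (Feature Extraction 10.7.3.1), and a table of log2 ratios, which the authors deposited without stating its steps. That table correlated with the values computed here at r = 0.991 and 0.988 and was not turned on the swap.

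Background was corrected by normexp with an offset of 50 in limma 3.58.1 (R 4.3.3) and each array was normalized by loess. The offset draws ratios of dim probes towards 0, and loess assumes that most genes do not change. Levels were also scaled between arrays (Aquantile). Spots were averaged and ratios turned to pre-miR-424 over control. A probe counted as measured when the software marked it well above background for both dyes on each array and no spot was an outlier, and as called when both arrays reached 2-fold in 1 direction. Of 27134 RefSeq probes, 25772 were named from a RefSeq table (GRCh38.p14); the array design uses hg19, so no positions of probes are given. Steps were tested on simulated data, and tables were built in Python 3.11.15 (pandas 2.3.3, numpy 2.4.6).

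The members and lists were chosen with earlier results of these data known. Genes named were all members, the 3 largest interferon rises and every interferon gene lower on both arrays, the 3 largest rises and falls of the apoptosis list, the partners and measured neighbours, and the 3 probes nearest to each member probe; markers and interferon genes named by their sign were added after their values were seen. As alternatives, median centring, uncorrected background, an offset of 16, software ratios, the deposited table, other filters and thresholds, each array alone, and the mean over a gene's probes were tried. Some list genes are counted but not reported here.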

Additional observations from a re-analysis of the deposited data

How the results depend on the processing

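The mean log2 ratios of the members moved little between the normalizations: from 1.53 to 1.62 for IFI27, from 1.17 to 1.26 for IFI6, from 1.18 to 1.39 and from 1.18 to 1.36 for the XAF1 probes, from −0.08 to 0.03 for IFI27L1 and from −0.05 to 0.01 for IFI27L2. Of the 105 values recomputed, 94 counted as the same and 11 as moved. The probe ratios that moved shifted by more than the spread of a single array, 0.24, and the counts that moved changed by more than 1.5 times. The medians of the interferon and apoptosis lists counted as moved under median centring although they shifted by less than that spread. No called value changed sign, whereas values near 0 did: the ratios of IFI27L1 and IFI27L2 and the median of the apoptosis list. Each array alone gave 1.31 to 1.87 for IFI27 and 0.97 to 1.5 for XAF1 A_24_P557479. Under median centring without loess the medians of all probes lay at 0.10 and −0.18 on the normal and swapped arrays, and IFI6, with 1.56 and 0.78, lost its 2-fold call (1.46 and 0.96 relative to those medians), while both XAF1 probes were called. That setting moved the median of the interferon list to 0.51 and of the apoptosis list to −0.043. With an offset of 16 or the software's ratios, 4 of 6 member probes were called. The count of all probes past 2-fold on both arrays, 36 (14 higher, 22 lower), became 67 (21 higher, 46 lower) with the software's ratios, 86 (52 higher, 34 lower) with the normal array alone, 133 (41 higher, 92 lower) with the swapped array alone and 218 (108 higher, 110 lower) at 1.5-fold. Allowing 1 base between the blocks in place of 2, an alternative chosen after seeing the data, left 1 member promoter window with a match in place of 3. The causes of these shifts were not tested. Every ratio already pairs the groups within an array. No paired analysis was possible because the comparison has 1 biological replicate, so no pairs of cultures can be formed. A biological replicate is lacking, so none of these ranges covers the variation between cultures.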
